A study of Mus musculus with 6 samples.

Results

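To describe the receptors upstream of the kinase that ABT-317 inhibits, the RNA-Seq values of 10 genes were taken from osteoclast precursors of LPS-injected mice. The genes were *Il6ra*, *Il6st*, *Ifnar1*, *Ifnar2*, *Ifngr1*, *Ifngr2*, *Il10ra*, *Il10rb*, *Il4ra*, and *Il2rg*, chosen by symbol as chains of the IL-6, interferon, IL-10, and IL-4 receptor families, and all 10 were found among the 24346 symbols of the tables. The cells were EGFP+ bone marrow cells sorted from the calvaria of CX3CR1-EGFP knock-in mice, in which the fractalkine receptor locus drives the green reporter, so the sort rests on this reporter alone. All 6 mice received LPS (20 mg/kg) in the calvarial periosteum. The JAK inhibitor group consisted of 3 mice dosed orally with ABT-317 (60 mg/kg, 2 doses per day for 5 days), and the vehicle group consisted of 3 mice on the carrier solution, so both groups share the LPS injection and the reporter allele. Mice without LPS were not analysed here, and neither the age nor the sex of the sequenced mice is given in the sources used here.

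Receptors of these families have no kinase activity of their own. Their chains hold Janus kinases at the cytoplasmic tail, and ligand binding brings the chains together so that the kinases phosphorylate each other, the receptor, and STAT factors. JAK1 is held by gp130 (*Il6st*), IFNAR2, IFNGR1, the IL-10 receptor alpha chain, and the IL-4 receptor alpha chain. Their partner chains hold TYK2 (IFNAR1, IL-10 receptor beta chain), JAK2 (IFNGR2), or JAK3 (the common gamma chain, *Il2rg*), whereas the IL-6 receptor alpha chain binds the cytokine and holds no kinase. In cells of the monocyte lineage, interferon gamma, IL-4, and IL-10 are known to restrain osteoclast formation, and IL-6 is known for driving inflammatory bone loss.

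All 10 receptor chains were expressed in the vehicle-treated mice, where each of the 3 controls reached an FPKM of 1 or more (fragments per kilobase of transcript, relative to all fragments mapped), against 40.5% of all 24346 symbols. At an unadjusted limma p under 0.05, *Il6st*, *Ifnar2*, and *Ifngr1* had higher values with JAK inhibitor than with vehicle and *Il4ra* had lower values. Over the 11301 genes tested, 6.57% were higher and 9.4% lower at this threshold. None of the 10 chains passed after adjustment over these genes. The 3 chains with higher values all bind JAK1, and so does *Il4ra*, the chain with lower values. Of the 10 chains 5 bind JAK1, and this grouping was made after the values were seen. No chain that binds another JAK or none was past the unadjusted threshold with all 6 mice, and *Ifnar1* was past it, with lower values, when vehicle-treated mouse 1 was left out.

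The sequences just upstream of the 3 chains with higher values are printed here because STAT factors, which JAK1 activates, bind DNA near gene starts. Each is the 250 bases before the annotated start of transcription, from RefSeq on GRCm38.p6, which is the mm10 assembly, on the plus strand and 5′ to 3′. Capitals mark a match to TTCNNNGAA, the palindromic STAT motif known as GAS. The windows lie at chr16:91372533-91372782 for *Ifnar2*, chr13:112463820-112464069 for *Il6st*, and chr10:19591699-19591948 for *Ifngr1*.
Ifnar2: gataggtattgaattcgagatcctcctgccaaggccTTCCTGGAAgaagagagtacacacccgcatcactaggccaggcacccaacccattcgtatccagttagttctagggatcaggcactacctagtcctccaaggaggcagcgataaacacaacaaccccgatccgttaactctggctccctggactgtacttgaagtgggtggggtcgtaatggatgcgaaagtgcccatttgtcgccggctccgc
Il6st: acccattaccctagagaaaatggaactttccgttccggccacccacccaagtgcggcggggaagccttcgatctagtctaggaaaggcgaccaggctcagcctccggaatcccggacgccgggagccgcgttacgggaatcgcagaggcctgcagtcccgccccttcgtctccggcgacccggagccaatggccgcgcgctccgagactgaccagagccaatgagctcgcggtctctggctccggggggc
Ifngr1: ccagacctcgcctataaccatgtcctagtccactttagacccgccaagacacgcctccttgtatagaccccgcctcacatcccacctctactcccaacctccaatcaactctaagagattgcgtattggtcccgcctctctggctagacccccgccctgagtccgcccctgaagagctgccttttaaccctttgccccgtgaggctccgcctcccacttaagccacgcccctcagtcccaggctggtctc

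A promoter sequence was found for 8 of the 10 genes, and *Il10ra* and *Il10rb* were not matched. The RefSeq start of *Il4ra* lies downstream of the gene start given here from GENCODE, so part of its window is inside the gene. Of the 8 windows, 1 held the GAS motif, that of *Ifnar2*, where the match TTCCTGGAA starts 214 bases before the gene. Among all 32851 RefSeq windows of this length, 7.02% held the motif. The interferon-stimulated response element (ISRE), searched on both strands, was in 0 of the 8 windows and in 2.98% of all windows. CpG dinucleotides ranged from 3 in the *Il2rg* window to 26 in the *Il6st* window, and all but *Il2rg* were above the median of 6 over all windows. The *Ifnar2* and *Ifngr1* windows had 11 each, fewer than those of chains without higher values such as *Ifngr2*, with 25, and *Ifnar1*, with 19.

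For the order of expression, FPKM was compared between genes, since it is scaled by transcript length. *Ifngr1* had the highest mean in the vehicle-treated controls and lay above 97.3% of the genes tested, followed by *Il2rg* and *Ifnar2*, and the ranges of these 3 genes over the mice did not overlap. *Ifngr2* and *Il10rb* came next with overlapping ranges, so their order is not set by these mice. *Il10ra* was below them. *Il6ra*, *Il4ra*, and *Ifnar1* followed, each with a range that overlapped that of its neighbour in the order. *Il6st* was the lowest, below every value of *Ifnar1*, and still above 46.6% of the genes tested.

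**Figure D1:**
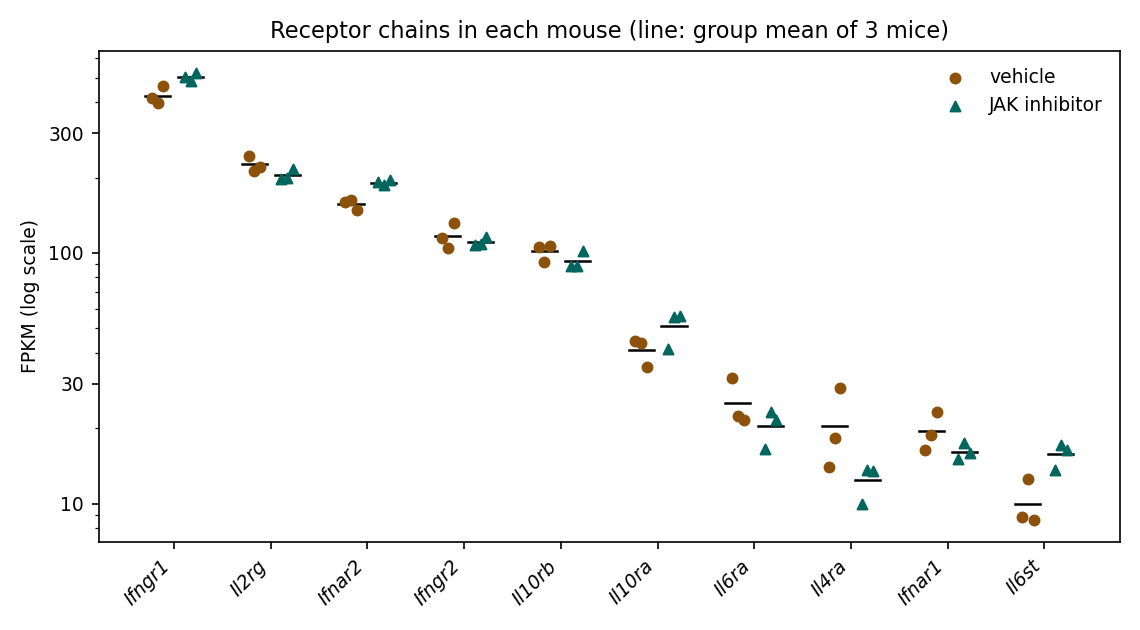
FPKM (log scale) of the 10 receptor chains in each of the 3 vehicle-treated (circles) and 3 JAK inhibitor-treated (triangles) mice, ordered by the vehicle mean, with lines at the group means. The levels run from *Ifngr1* at a mean of 424.2 to *Il6st* at 9.99 with vehicle, and the groups are apart for *Ifngr1*, *Ifnar2*, *Il4ra*, and *Il6st*.

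The cell types in the sort were checked by marker genes. The monocyte genes *Csf1r*, *Ly6c2*, *Ccr2*, and *Cx3cr1* were expressed in all mice, and the summed FPKM of 8 monocyte and macrophage markers was 3707 to 5436 with vehicle and 4892 to 5313 with JAK inhibitor, most of it *Ly6c2*. Of these 8, 0 were higher and 2 lower under treatment at an unadjusted limma p under 0.05, namely *Cd14*, with means of 101.1 and 55.3 and no overlap, and *Itgam*, with 99.3 and 77.4. Genes of granulocytes and their precursors were also abundant, with sums of 16927 to 22870 and 17161 to 24286 over 8 markers, of which 3 were higher and 1 lower under treatment at an unadjusted p under 0.05. The higher ones were *Camp*, *Mpo*, and *Elane*, an enzyme of early granules. *Elane* had 2316, 2452, and 1003 in the controls and 4023, 3903, and 3713 in the treated mice. *Cxcr2* was the lower one, with means of 7.94 and 4.03 and no overlap. Under treatment *S100a8* (means of 11408 and 7740) and *S100a9* had lower means and *Ltf* and *Ngp* higher means, all with overlapping groups. The 8 T and NK cell markers summed to 170.6 to 366.1 and 491.4 to 562.7, nearly all of it *Nkg7*, while *Cd3e* stayed at or below 0.385. The 5 B cell markers summed to 27.5 to 31.9 and 28.9 to 42.8, with *Ms4a1* listed at 0. The 5 dendritic cell markers gave 33.6 to 45.02 and 28.3 to 34.1. Sums of 5 erythroid markers were 0.69 to 2.77 and 6.09 to 51.1, higher in every treated mouse than in every control and highest in JAK inhibitor-treated mouse 3. Of the 4 erythroid genes that passed the filter, 2 were higher and 0 lower at an unadjusted limma p under 0.05. *Klf1* had means of 1.76 and 5.24 with no overlap, and *Hba-a1* passed the filter only through the treated mice. Sums of 5 stromal markers were 0.16 to 0.64 and 0.23 to 1.09, with *Pdgfra* listed at 0. Vehicle-treated mouse 3 had the lowest values of all 6 mice for *Ly6c2*, *Cx3cr1*, *Mpo*, and *Elane*, and at the same time the highest for *Il4ra*, *Ifnar1*, and *Ifngr2* and the lowest for *Il6st*, *Il10ra*, and *Ifnar2*. In bulk RNA, fewer cells of a type and less RNA per cell cannot be told apart, and the part of these markers in the values of the receptor chains was not tested.

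The JAK inhibitor was compared with vehicle by limma on log2(FPKM + 1), fitted to the 11301 genes that reached 1 FPKM in 1 or more of the mice. All 10 receptor chains passed this filter. Over all genes tested, 0.133% had an adjusted p under 0.05, 6.57% were higher and 9.4% were lower at an unadjusted p under 0.05, and none, 3, and 1 of the 10 chains, respectively, met these criteria. The groups did not overlap, with all treated mice above all controls, for 3 chains and for 9.92% of all genes. They lay apart in the opposite direction for 1 chain and for 12.1% of all genes. The median log2 fold change was -0.10 over the 10 chains and -0.0035 over all genes tested. With 3 mice against 3, the smallest p of the exact 2-sided permutation test is 0.1.

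The IL-6 receptor was considered first. *Il6st*, on chromosome 13 (112464070 to 112510086, plus strand), encodes gp130, the signalling chain shared by IL-6, IL-11, oncostatin M, and leukaemia inhibitory factor. Its FPKM was 8.82, 12.5, and 8.62 in the controls and 13.7, 17.2, and 16.3 under treatment. Every treated mouse lay above every control, and the group means of 9.99 ± 2.21 and 15.7 ± 1.83 (SD, n = 3) differed 1.57-fold. The log2 fold change was 0.62 (SE 0.17, adjusted p = 0.147 in limma; exact permutation test, p = 0.1). It was the most positive of the 10.

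*Il6ra*, on chromosome 3 (89864059 to 89913196, minus strand), encodes the chain that binds IL-6 itself. The controls had an FPKM of 31.6, 22.4, and 21.6 and the treated mice 16.6, 23.2, and 21.6. The groups overlapped, with vehicle-treated mouse 1 above all others and JAK inhibitor-treated mouse 1 below all others. The log2 fold change was -0.28, and its 95% interval of -0.68 to 0.12 included no difference. It was -0.11 without vehicle-treated mouse 1 and -0.14 without JAK inhibitor-treated mouse 1. Exons of *Il6ra* overlap those of Gm42809 on the other strand, whose reads may not have been kept apart.

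Type I interferons bind IFNAR2 and IFNAR1. *Ifnar2*, on chromosome 16 (91372783 to 91405589, plus strand), encodes the high-affinity chain. FPKM values of 160.1, 162.1, and 148.8 were found in the controls and of 191.8, 186.3, and 195.0 in the treated mice. The spread within each group was small, and the lowest treated mouse was above the highest control. The log2 fold change was 0.28 (SE 0.080, adjusted p = 0.157 in limma). *Ifnar2* also yields a soluble form by alternative splicing, which a gene-level value does not separate.

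*Ifnar1* (chromosome 16, 91485238 to 91507441, plus strand) encodes the TYK2-binding partner. Its FPKM of 16.4, 18.8, and 23.3 in controls overlapped with 15.01, 17.42, and 15.96 in treated mice. The highest reading came from vehicle-treated mouse 3 and the lowest from JAK inhibitor-treated mouse 1. The fold change on the log2 scale was -0.25 (95% interval -0.58 to 0.080). It was -0.36, with an unadjusted limma p of 0.0425, without vehicle-treated mouse 1, and -0.12 without vehicle-treated mouse 3.

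The interferon gamma receptor had the highest level of the 5 complexes in its ligand-binding chain. *Ifngr1* (chromosome 10, 19591949 to 19610229, plus strand) had an FPKM of 413.6, 395.6, and 463.2 with vehicle and of 501.6, 484.3, and 522.0 under treatment. The gap between the groups was narrow, since vehicle-treated mouse 3 stood close below JAK inhibitor-treated mouse 2. Group means were 424.2 ± 35.0 and 502.6 ± 18.9 (SD, n = 3), a ratio of 1.18. Its log2 fold change was 0.25 (SE 0.088, adjusted p = 0.222 in limma). The unadjusted p exceeded 0.05 in a fit without the limma trend, and also without vehicle-treated mouse 1 (log2 fold change 0.23), vehicle-treated mouse 2 (0.20), or JAK inhibitor-treated mouse 3 (0.22).

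*Ifngr2* (chromosome 16, 91547072 to 91565623, plus strand) encodes the JAK2-binding chain, whose amount is known to limit the response to interferon gamma in some cells. Readings of 114.8, 105.0, and 132.2 with vehicle enclosed those of 107.7, 108.8, and 115.5 with JAK inhibitor. Its log2 fold change of -0.08 was the closest to 0 among the 10 chains, with a 95% interval of -0.31 to 0.16, and it was 0.01 without vehicle-treated mouse 3.

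For IL-10, a cytokine that dampens macrophage activation, *Il10ra* (chromosome 9, 45253837 to 45269149, minus strand) encodes the specific chain. Its FPKM was 44.7, 43.5, and 35.2 in the controls, whereas it was 41.2, 55.7, and 56.2 in the treated mice. JAK inhibitor-treated mouse 1 lay among the controls and the other treated mice above them. The log2 fold change was 0.30 (95% interval -0.04 to 0.63), and it was 0.44 and past an unadjusted p of 0.05 without JAK inhibitor-treated mouse 1. *Il10rb* (chromosome 16, 91406164 to 91425834, plus strand), the chain shared with IL-22 and interferon lambda, had 105.8, 92.1, and 106.4 with vehicle and 88.7, 88.5, and 102.0 under treatment. The groups overlapped and the log2 fold change was -0.12 (95% interval -0.35 to 0.11).

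*Il4ra* (chromosome 7, 125552120 to 125579474, plus strand) encodes the chain that binds IL-4 and is also part of the IL-13 receptor. It was the only chain past the unadjusted threshold with lower values under treatment, with an FPKM of 14.1, 18.3, and 29.0 in the controls and 9.99, 13.6, and 13.5 in the treated mice. The highest treated mouse lay just below vehicle-treated mouse 1, and vehicle-treated mouse 3 stood well above the rest. The means of 20.4 ± 7.69 and 12.4 ± 2.08 (SD, n = 3) gave a ratio of 0.606, and the log2 fold change was -0.63 (SE 0.24, adjusted p = 0.249 in limma). This result depended in part on single mice. The log2 fold change was nearer to no difference without vehicle-treated mouse 3 (-0.36) or JAK inhibitor-treated mouse 1 (-0.50), and the unadjusted p exceeded 0.05. Without JAK inhibitor-treated mouse 2 or mouse 3 the p also exceeded 0.05, although the log2 fold change was slightly larger in size (-0.70 each). The unadjusted p was above 0.05 as well without the filter on low values or with library weights (-0.44). Exons of *Il4ra* overlap those of Gm44876 on the other strand.

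*Il2rg* (chromosome X, 101264378 to 101268255, minus strand) encodes the common gamma chain of the receptors for IL-2, IL-4, IL-7, IL-9, IL-15, and IL-21. Its FPKM of 244.3, 212.9, and 220.2 in the controls ran into the range of the treated mice, which had 197.8, 199.7, and 215.9. The log2 fold change was -0.14 (95% interval -0.34 to 0.059). Its exons overlap those of Gm20489 on the same strand.

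**Figure D2:**
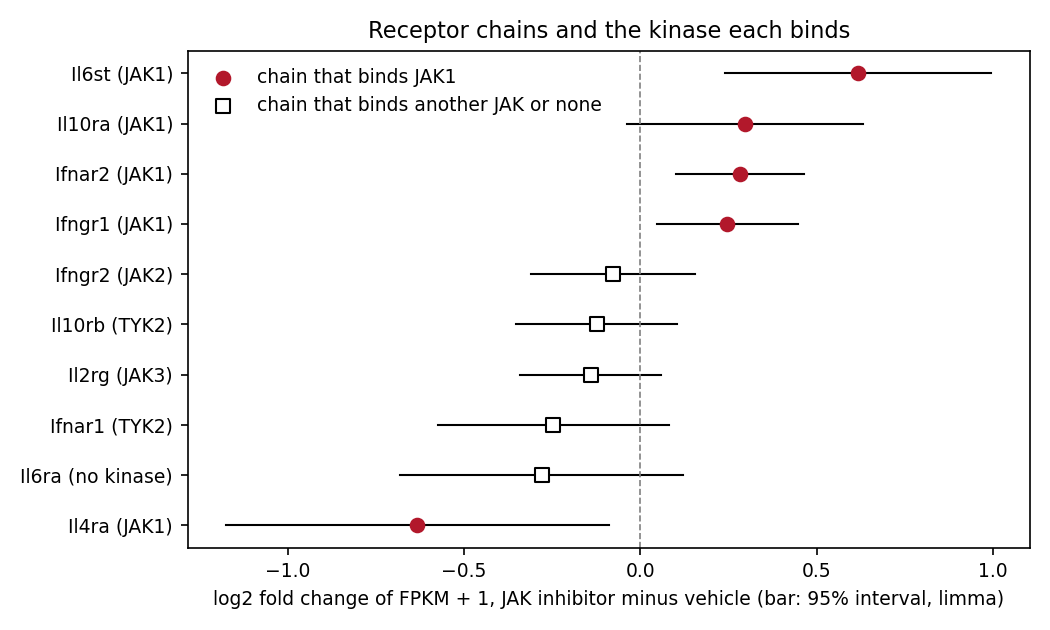
Log2 fold change of FPKM + 1 (JAK inhibitor minus vehicle) of each receptor chain with its 95% interval from limma; circles mark chains that bind JAK1 and squares those that bind another JAK or none. The intervals of *Il6st*, *Ifnar2*, *Ifngr1*, and *Il4ra* do not include 0, and the fitted values of the 5 chains without JAK1 are between -0.28 and -0.08.

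The chains were then grouped by the kinase they bind, a grouping made after the values were seen. Of the 5 chains that bind JAK1, 4 had fitted values above 0 and 1, *Il4ra*, below, with a median log2 fold change of 0.28. All 5 partner chains had fitted values below 0 and overlapping groups, with a median of -0.14, although *Ifngr2* was slightly above 0 without vehicle-treated mouse 3. Among the 11301 genes tested, 5715 were fitted below 0 and 5586 above. The groups lay apart for 9.92% of these genes in the higher direction and for 12.1% in the lower, and overlapped for the rest. The pattern describes 10 genes in 6 mice and was not tested. *Ifnar2*, *Il10rb*, *Ifnar1*, and *Ifngr2* lie in this order on the same strand within 192.8 kb of chromosome 16, and of these only *Ifnar2* passed the unadjusted threshold. Exons of both *Ifnar2* and *Il10rb* overlap those of Gm21970, a gene model that spans both, on the same strand, so reads of the 2 genes could be assigned differently by another annotation.

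Next, the partner chains of each complex were compared within a mouse. The 5 pairs were *Il6ra*/*Il6st*, *Ifnar1*/*Ifnar2*, *Ifngr1*/*Ifngr2*, *Il10ra*/*Il10rb*, and *Il4ra*/*Il2rg*. For IL-6, *Il6ra* had 3.59, 1.78, and 2.50 times the FPKM of *Il6st* in the controls and 1.21, 1.35, and 1.32 times under treatment. The treated mice were all below the controls and close to each other. The log2 ratio of FPKM + 1 was 1.25 ± 0.47 with vehicle and 0.35 ± 0.081 with JAK inhibitor (SD, n = 3), a difference of -0.90 (exact permutation test, p = 0.1, adjusted p = 0.167 over the 5 pairs).

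The FPKM of *Ifnar2* was 9.77, 8.60, and 6.40 times that of *Ifnar1* in the controls and 12.8, 10.7, and 12.2 times in the treated mice. The groups did not overlap, and the difference in the log2 *Ifnar1*/*Ifnar2* ratio was -0.53 (exact permutation test, p = 0.1, adjusted p = 0.167). For interferon gamma, *Ifngr1* exceeded *Ifngr2* 3.60-, 3.77-, and 3.51-fold with vehicle and 4.66-, 4.45-, and 4.52-fold with JAK inhibitor. This pair had the smallest spread within groups of the 5, at 0.052 and 0.033 (SD of the log2 ratio, n = 3), and its difference was 0.32 (exact permutation test, p = 0.1, adjusted p = 0.167). Each of the 3 ratios with groups apart includes a chain whose own groups were apart, *Il6st*, *Ifnar2*, or *Ifngr1*. These ratios are therefore not separate results, and how often ratios of other gene pairs lie apart was not computed.

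The remaining pairs overlapped between the groups. The log2 *Il10ra*/*Il10rb* ratio differed by 0.42 (exact permutation test, p = 0.2, adjusted p = 0.25), with JAK inhibitor-treated mouse 1 among the controls. *Il4ra* was far less abundant than *Il2rg* in all 6 mice, at 0.058, 0.086, and 0.13 of its FPKM with vehicle and 0.051, 0.068, and 0.063 under treatment, a difference in log2 ratio of -0.49 (exact permutation test, p = 0.3, adjusted p = 0.3). Vehicle-treated mouse 3 had the highest *Il4ra*/*Il2rg* ratio, and without it the difference was -0.20.

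**Figure D3:**
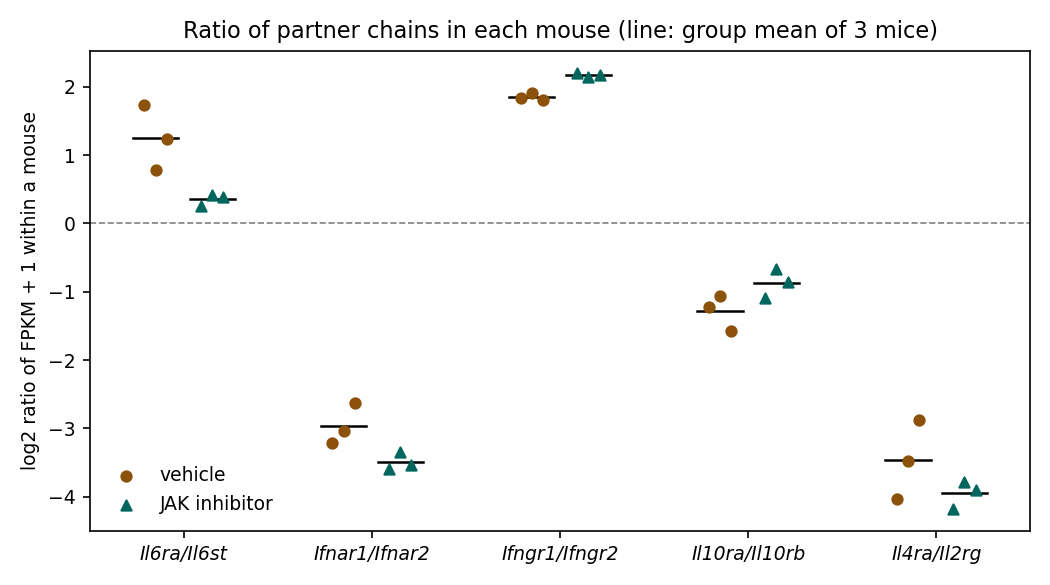
Log2 ratio of FPKM + 1 between the partner chains of 5 receptor complexes within each vehicle-treated (circles) and JAK inhibitor-treated (triangles) mouse, with lines at the group means. The groups are apart for the IL-6 and both interferon receptors, where the differences are -0.90, -0.53, and 0.32, and they overlap for *Il10ra*/*Il10rb* and *Il4ra*/*Il2rg*. Each ratio with groups apart includes a chain whose own groups were apart (*Il6st*, *Ifnar2*, or *Ifngr1*), and ratios of other gene pairs were not computed.

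The other genes of the pathway were taken from lists of receptor chains, ligands, and signalling proteins. Of 17 further receptor chains used with JAK1, 12 passed the filter, and 0 were higher and 2 lower at an unadjusted limma p under 0.05. Their groups lay apart with lower values for 2 chains and with higher values for 2, against 12.1% and 9.92% of all genes tested. The most abundant were *Il13ra1*, with means of 52.3 and 46.3, *Csf3r*, with 49.1 and 56.04, and *Il15ra*, with 28.5 and 17.5. None of the 3 passed the unadjusted threshold, although for *Csf3r* every treated mouse lay above every control. *Osmr*, the oncostatin M chain that pairs with *Il6st*, was listed at 0 in every mouse, and *Il22ra1*, which pairs with *Il10rb*, reached at most 0.004. *Ifnlr1*, the interferon lambda chain that pairs with *Il10rb*, had an FPKM of 3.16, 2.88, and 8.78 in the controls and 1.47, 1.93, and 1.14 in the treated mice (log2 fold change -1.12, adjusted p = 0.175 in limma). All treated mice were below all controls. *Il2rb*, which joins *Il2rg* in the IL-2 and IL-15 receptors, was the other lower gene, with means of 0.98 and 0.29. It passed the filter only through vehicle-treated mouse 3, so its direction follows from the filter, and with 1 FPKM required in 3 mice the count of lower chains was 1.

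Of 18 ligands of these receptors, 6 passed the filter and 6 were listed at 0 in every mouse, among them *Ifng* and *Ifnb1*. *Il4*, the ligand of *Il4ra*, had 3.13, 5.54, and 5.42 with vehicle and 2.41, 1.38, and 1.51 under treatment (log2 fold change -1.03, adjusted p = 0.117 in limma). *Il15* went the other way, with 7.62, 8.09, and 3.21 against 13.6, 12.4, and 10.9 (log2 fold change 0.94, adjusted p = 0.163 in limma). For both ligands the groups were apart. The most abundant ligand gene was *Ebi3*, a subunit of IL-27, with means of 86.8 and 83.0, and *Osm* had means of 5.68 and 5.86, both with overlapping groups. *Il6* itself was low in all mice, at a mean of 2.61 with vehicle and 1.97 with JAK inhibitor. Every treated mouse lay below every control (log2 fold change -0.28, adjusted p = 0.516 in limma).

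Downstream of the receptors, the 4 Janus kinases and 7 STAT factors all passed the filter, and 1 of these 11 genes was past the unadjusted threshold. *Stat3*, the main STAT of gp130 and the IL-10 receptor, had 69.7, 65.7, and 70.9 with vehicle and 48.2, 54.2, and 59.6 under treatment, with no overlap (log2 fold change -0.35, adjusted p = 0.168 in limma). *Jak1*, the target of the inhibitor, had means of 49.5 ± 2.91 and 47.1 ± 5.02 (SD, n = 3), and *Stat6*, which IL-4 activates, had 83.4 ± 3.60 and 83.4 ± 5.63 (SD, n = 3). The log2 fold changes of *Jak1* and *Stat6* were -0.08 (95% interval -0.32 to 0.17) and -0.0028 (95% interval -0.21 to 0.20).

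**Figure D4:**
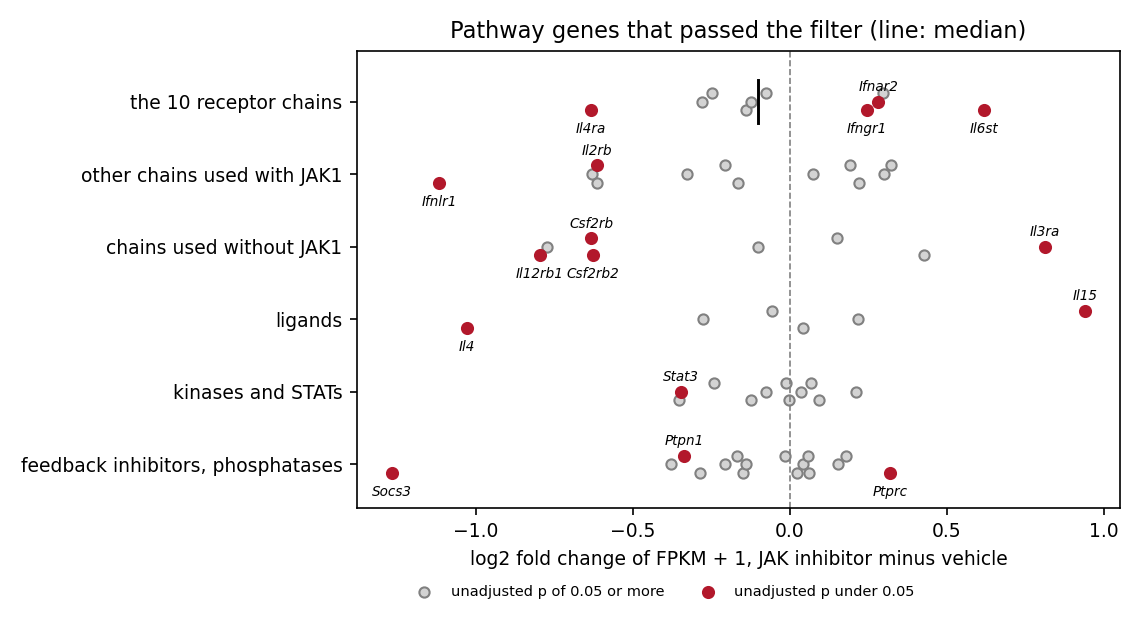
Log2 fold change of FPKM + 1 (JAK inhibitor minus vehicle) of every gene of the receptor, ligand, kinase, and feedback lists that passed the filter on low values, with a line at the median of the 10 receptor chains; red points have an unadjusted limma p under 0.05. Of the 10 receptor chains 4 are red, 3 of them on the higher side. Among the 12 other chains used with JAK1, 0 are higher and 2 lower, where *Il2rb* passed the filter only through 1 control. Over all genes tested, 6.57% were higher and 9.4% lower at this threshold.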

How the data were processed

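RNA was sequenced from sorted EGFP+ cells of 6 mice, 3 per group. Gene expression was deposited by the authors as FPKM, in a table for each mouse. The submitters' processing notes name TopHat2 2.0.13, Bowtie2 2.2.3, SAMtools 0.1.19, and Cufflinks 2.2.1 and the build mm10. The annotation is not given in the sources used here. Sources differ on the library kit (TruSeq Stranded in the methods, SMART-Seq HT with Nextera in the labels), so whether strand was used is unclear. FPKM summed to between 688372 and 775790 per mouse. Read depth is unknown, so no counting interval is given.

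Values of log2(FPKM + 1) were compared by limma 3.58.1 in R 4.3.3 (trended empirical Bayes, p-values adjusted by Benjamini-Hochberg over 11301 genes), without a replicate block, in a script tested on simulated data. A 95% interval is that of limma. Ratios of partner chains were compared by the exact 2-sided permutation test, enumerated in Python with NumPy. The pseudocount understates changes of low genes. The members, lists, and alternatives were chosen with earlier results of these data known. All 10 receptor chains are named. From each other list, up to 3 genes with the highest vehicle mean and up to 4 with the smallest unadjusted p under 0.05 are named. *Osmr*, *Il22ra1*, *Ifng*, *Ifnb1*, *Il6*, *Cd14*, *Itgam*, and *Ghr* were named after their values were seen. So were *Camp*, *Cxcr2*, *S100a8*, *S100a9*, *Ltf*, *Ngp*, *Klf1*, and *Hba-a1*. The marker *Ly6g* was not found under that symbol. Positions are from GENCODE M21 on GRCm38. Python 3.11.15, pandas 2.3.3, NumPy 2.4.6, and matplotlib 3.10.9 were used. Imaging, flow cytometry, and RT-qPCR were not analysed here.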

Additional observations from a re-analysis of the deposited data

How the results depend on the processing

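The 14 alternatives to the limma comparison were another pseudocount, 2 other filters, 2 scalings, no trend, library weights, the replicate block, and fits without each of the 6 mice. *Il6st* (0.53 to 0.78) and *Ifnar2* (0.24 to 0.35) kept an unadjusted p under 0.05 in all 14, *Ifngr1* in 10 and *Il4ra* in 8. No adjusted p of the 10 chains was under 0.05 in any of the 14; the smallest was 0.084, for *Il6st*. The count of chains lower at an unadjusted p was 0 without a filter and 0 with library weights, and ranged from 0 to 2 with each mouse left out. *Ifngr2* ranged from -0.15 to 0.011 with a mouse left out and was above 0 only without vehicle-treated mouse 3. Among the 77 other pathway genes, 55 of which passed the main filter, the count of lower genes was 9 in the main fit. It ranged from 5, without JAK inhibitor-treated mouse 2, to 13, without vehicle-treated mouse 2. The count of lower genes over all genes was 1062 in the main fit, and 799 and 1066 without these mice, respectively. Over all genes, 15 passed at an adjusted p, against 2 without a filter, 34 with at least 1 FPKM in 3 mice, 2 without the trend, 63 with library weights, 67 with the replicate block, and 1 to 25 with a mouse left out. The cause of these differences was not tested. The ratios of partner chains kept their direction in the alternatives run for them.

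Same-numbered mice were not treated as paired in the main fit. The correlations of their deviations from the group means were 0.016, 0.054, and -0.00016, and not every mouse correlated best with its own number. The labels do not say whether mice were handled in pairs, and these correlations cannot settle it. The replicate block left the counts of chains at 3 higher and 1 lower. All 10 chains also counted as expressed at 0.5 and at 2 FPKM. With 3 mice per group and unknown depth, small differences in single chains could not be resolved.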

Other observations

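Receptor chains of cytokines that signal without JAK1 were listed for comparison. Of 11, 8 passed the filter, with 1 higher and 3 lower at an unadjusted limma p under 0.05. With 1 FPKM required in 3 mice, 2 were lower. *Csf2rb*, the beta chain shared by GM-CSF, IL-3, and IL-5, had an FPKM of 62.0, 54.5, and 90.3 in the controls and 40.5, 45.4, and 43.5 in the treated mice, with no overlap (log2 fold change -0.63, SE 0.17, adjusted p = 0.147 in limma). Its close copy *Csf2rb2*, with which it may share reads, had -0.63 with overlapping groups. *Il3ra*, the chain specific to IL-3, was in the opposite direction, with 4.30, 5.38, and 3.84 against 10.9, 8.59, and 6.79 (log2 fold change 0.81, adjusted p = 0.117 in limma). *Csf2ra*, the chain specific to GM-CSF, had means of 138.0 and 152.6 (log2 fold change 0.15, 95% interval -0.11 to 0.41). *Il12rb1*, the remaining lower gene, had means of 1.18 and 0.26 and passed the filter only through the controls, so its direction follows from the filter. *Ghr*, with means of 1.06 and 0.079, passed only through vehicle-treated mouse 3.

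Of 18 feedback inhibitors and phosphatases, 16 passed the filter, with 1 higher and 2 lower at an unadjusted p under 0.05. *Socs3*, the STAT3 target that blocks gp130, had 19.9, 9.48, and 52.3 with vehicle and 8.30, 7.74, and 9.28 with JAK inhibitor (log2 fold change -1.27, SE 0.47, adjusted p = 0.238 in limma). Vehicle-treated mouse 3 was far above the other controls. *Ptprc*, the gene of CD45, had 113.3, 104.8, and 94.3 against 128.2, 130.9, and 130.6 (log2 fold change 0.32, adjusted p = 0.159 in limma). *Ptpn1*, a phosphatase of JAK2 and TYK2, had a log2 fold change of -0.34 (adjusted p = 0.196 in limma), and *Ptpn6* (SHP-1) had the highest level of this list, with means of 475.0 and 428.5. *Adam10* and *Adam17*, proteases that shed the IL-6 receptor, had log2 fold changes of 0.18 (95% interval -0.05 to 0.41) and -0.10 (95% interval -0.37 to 0.16).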
